A study of Mus musculus with 2 samples.

Results

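Pf4 and Msr1 macrophage-like cells were a small group of 63 of 2349 cells in a droplet single-cell RNA library made from myeloid cells of mouse bone. They were chosen by measured values: a cell entered with 3 or more UMIs (unique molecular identifiers, counted as 1 per captured RNA molecule) summed over 4 macrophage genes, among them Pf4, Cd36 and Msr1, with S100a8 and S100a9 below 5% of its UMIs and Prg4 and Dcn below 0.5%. The levels of these genes are therefore described and not tested. The library held 2 pools, each marked with its own antibody hashtag. The OVX pool came from female BALB/c mice that had both ovaries removed (ovariectomy, OVX) at 10 weeks of age. The sham pool came from sham-operated mice of the same strain and age. Bones were taken 4 weeks after surgery from 20 mice per condition, and the number of mice in each pool was not stated. Cells came from femurs and vertebrae stripped of periosteum, the femurs also flushed of marrow, and digested with trypsin and collagenase, and were sorted for CD11b with F4/80 or CD68. There was 1 pool per condition and no replicate, so OVX and sham are set side by side as counts with no test, and every interval given is a 95% interval that covers counting error only. All the cells shared a single library, in which the median cell had 4812 UMIs with the OVX and 3704 with the sham hashtag.

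Macrophages are phagocytes that arise from embryonic precursors or from blood monocytes, and monocytes newly arrived in a tissue keep genes such as Ccr2, a chemokine receptor, while they gain scavenger receptors and lysosomal enzymes. Msr1 and Cd36 encode scavenger receptors that take up modified lipoproteins. Pf4 and Ppbp encode CXC chemokines best known from platelet granules, and Pf4 is also made by some macrophages.

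The macrophage-like cells held 784170 UMIs in all, with a median of 8635 per cell (624 to 84224) and a median of 2453 genes. They were compared with the 3 other groups that the same limits give. The 1806 S100-rich cells, with S100a8 and S100a9 at 5% or more, had a median of 4516 UMIs and 23.5% of their UMIs from this pair of neutrophil genes. The 189 Prg4+Dcn-rich cells, which carried stromal genes, had a median of 20523 UMIs. The remaining 291 cells had a median of 1783 UMIs. S100a8 and S100a9 took a median of 0.188% of UMIs in the macrophage-like cells and 0.121% in the Prg4+Dcn-rich cells. The 5 deepest macrophage-like cells gave 28.7% of the group's UMIs, so summed levels lean on them.

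The rule genes were spread unevenly over the cells. Pf4 (chr5:90772435-90773383, plus strand; all gene positions are on GRCm38 from GENCODE) had a UMI in 45 of the 63 cells, with a median of 1 and a highest value of 613. Msr1 (chr8:39581685-39642673, minus strand) was the most widely detected of them, in 55 cells, with a median of 6 and a highest value of 66. Cd36 (chr5:17781690-17888801, minus strand) had a UMI in 26 cells and never more than 31. All 4 genes were seen together in 15 cells, 3 of them in 26 cells, 2 in 14 cells and 1 in 8 cells. Pf4 and Msr1 shared 40 cells, Pf4 was without Msr1 in 5 and Msr1 without Pf4 in 15, and 3 cells had neither. Cd36 and Msr1 shared 19 cells, and Cd36 was without Msr1 in 7. The 5 cells highest in Pf4 held 74.6% of its 2570 UMIs, so its summed level rested on few cells.

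**Figure D1:**
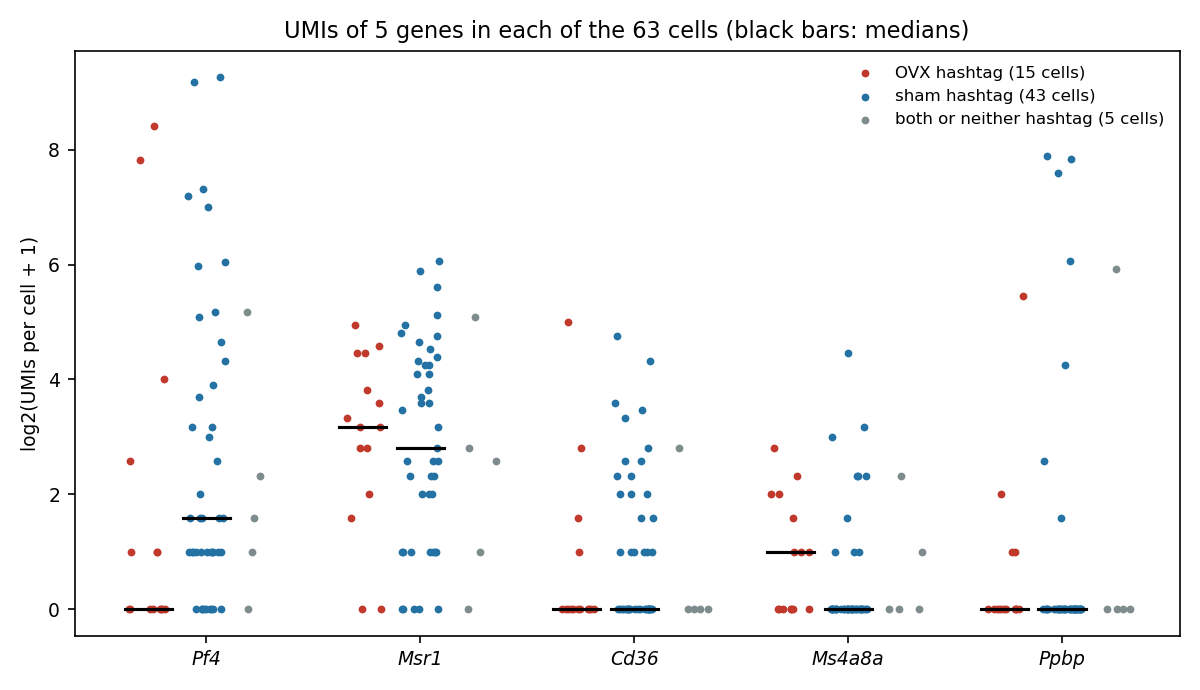
UMIs of Pf4, Msr1, Cd36, Ms4a8a and Ppbp in each of the 63 macrophage-like cells, on a log2(UMIs + 1) axis, by hashtag (15 OVX, 43 sham, 5 with both or neither), with black bars at the medians. Msr1 was detected in most cells, while Pf4 ranged from 0 to 613 UMIs, with 10 or more in 17 cells, and Ppbp was at 0 in all but 12.

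At the limits of the rule the cells were few. There were 2 cells at exactly 3 rule-gene UMIs and 5 of the remaining cells at 2. The highest S100 shares among the macrophage-like cells were 4.83% and 3.39%, and the lowest among the cells left out by that limit were 6.88% and 7.86%. In all, 39 S100-rich cells carried 3 or more rule-gene UMIs, 30 of them with the OVX and 8 with the sham hashtag. Of these, 11 had 20 or more, up to 474 in a single cell, and 9 of the 11 also had an Irf8 UMI and 8 a Vcan UMI. The other 28 had 3 to 13 rule-gene UMIs, a median S100 share of 27.4% and Irf8 in 1 cell. Whether such droplets held a macrophage with a neutrophil, or a macrophage with much free S100 RNA, was not tested. Scrublet marked 1 of all 2349 cells as a doublet and none of the 63. By their hashtags, 78 of all cells and 3 of the 63 carried both, so Scrublet left most such droplets unmarked. The lack of a Scrublet mark therefore says little about doublets here.

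Most of the cells carried general macrophage genes, which the rule did not use. A list of 23 macrophage genes gave a summed level of 1065 CPM (UMIs of the gene per 1000000 UMIs) in the macrophage-like cells against 113 CPM in the S100-rich and 293 CPM in the Prg4+Dcn-rich cells, and 47 of the 63 cells had a UMI of 3 or more of its genes. By the same count 58 cells had 3 or more of 12 mature neutrophil markers, and at 1000 UMIs per cell 4.92% of cells had 3 or more macrophage genes. Csf1r, the receptor for the growth factor M-CSF, had a UMI in 32 cells at 98.2 CPM. Adgre1, which encodes F4/80, one of the sorting antigens, had a UMI in 20 cells at 79.1 CPM, and Cd68, the other, in 41 cells at 214 CPM. Maf (25 cells), the legumain gene Lgmn (31 cells), the lipid-sensing receptor gene Trem2 (17 cells) and the Fc receptor gene Fcgr1 (14 cells) were also present. Itgam, which encodes CD11b, had a UMI in 57 cells.

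Free RNA can put UMIs of a gene into droplets whose cell does not express it, so these shares were set beside the Prg4+Dcn-rich cells, which were deeper. A Csf1r UMI was found in 9.52% of those cells, a Cd68 UMI in 21.7%, and an Adgre1, Trem2 or Fcgr1 UMI in none of the 189. With each cell thinned to 1000 UMIs, which left out 2 macrophage-like and 11 Prg4+Dcn-rich cells, Cd68 was seen in 16.4% against 2.25% and Csf1r in 6.56% against 0%. Not all genes of the list went this way: Apoe, the apolipoprotein E gene, was at 19.1 CPM against 206.5 CPM in the Prg4+Dcn-rich cells and was seen in 1.64% against 16.9% of thinned cells, and Mertk, an efferocytosis receptor gene, was at 10.2 against 13.8 CPM.

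The genes that mark long-resident tissue macrophages were largely missing. Of the 23 listed genes, 10 were without a UMI in all 63 cells. These were C1qb and C1qc of the complement C1q complex, the haemoglobin scavenger receptor gene Cd163, Timd4, Siglec1, Cd5l, Folr2, Lyve1, Vsig4 and Vcam1. C1qa had a single UMI, and Mrc1, the mannose receptor gene, had a UMI in 2 cells. Taking 3 counts as the limit that a count of 0 allows, no UMI in 63 cells allows a share of cells with a UMI of up to 4.76% and a level of up to 3.83 CPM. The label of macrophage-like cells therefore held for general macrophage genes and not for those of tissue residents.

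Monocyte genes were detected in the same cells. A list of 15 monocyte genes summed to 1867 CPM, against 200.3 CPM in the S100-rich and 11784 CPM in the Prg4+Dcn-rich cells, and 48 cells had 3 or more of its genes, 41 of which also had 3 or more macrophage genes. Irf8, a transcription factor of monocyte and dendritic cell development, had a UMI in 44 cells (69.8%) at 185 CPM, against 0.529% of Prg4+Dcn-rich and 0.72% of S100-rich cells. Ccr2, which brings monocytes out of marrow toward CCL2, had a UMI in 27 cells at 187 CPM and in none of the Prg4+Dcn-rich cells. Vcan, the versican gene of classical monocytes, had a UMI in 48 cells at 515 CPM, but was also seen in 58.7% of Prg4+Dcn-rich cells. The list genes Fn1, F13a1 and Klf4 were seen in 98.9%, 64.0% and 88.9% of Prg4+Dcn-rich cells. The classical monocyte surface gene Ly6c2 was low, with a UMI in 11 cells at 34.4 CPM against 55.8 CPM in the S100-rich cells. Cx3cr1 and Nr4a1, which mark patrolling monocytes, had a UMI in 1 and 3 cells. Ccr2 was found in 14 of the 45 cells with Pf4 and in 13 of the 18 without it. Cells without Pf4 had to enter by the other rule genes, so the rule shaped this split, which was not made at equal depth.

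Classical dendritic cell genes were near 0. Of 14 listed genes, 8 had no UMI, among them Flt3, Xcr1, Clec9a, Batf3, Cd209a and Siglech, which between them mark the main dendritic lineages. Tcf4 was the most abundant at 119 CPM and was seen in 75.1% of Prg4+Dcn-rich cells. A single OVX cell held 42 of its 93 UMIs. Ccr7 had 6 UMIs, all in 1 sham cell that had entered with 3 Cd36 UMIs. Only 1 cell had 3 or more genes of the list, and it also carried endothelial genes, as described below.

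**Figure D2:**
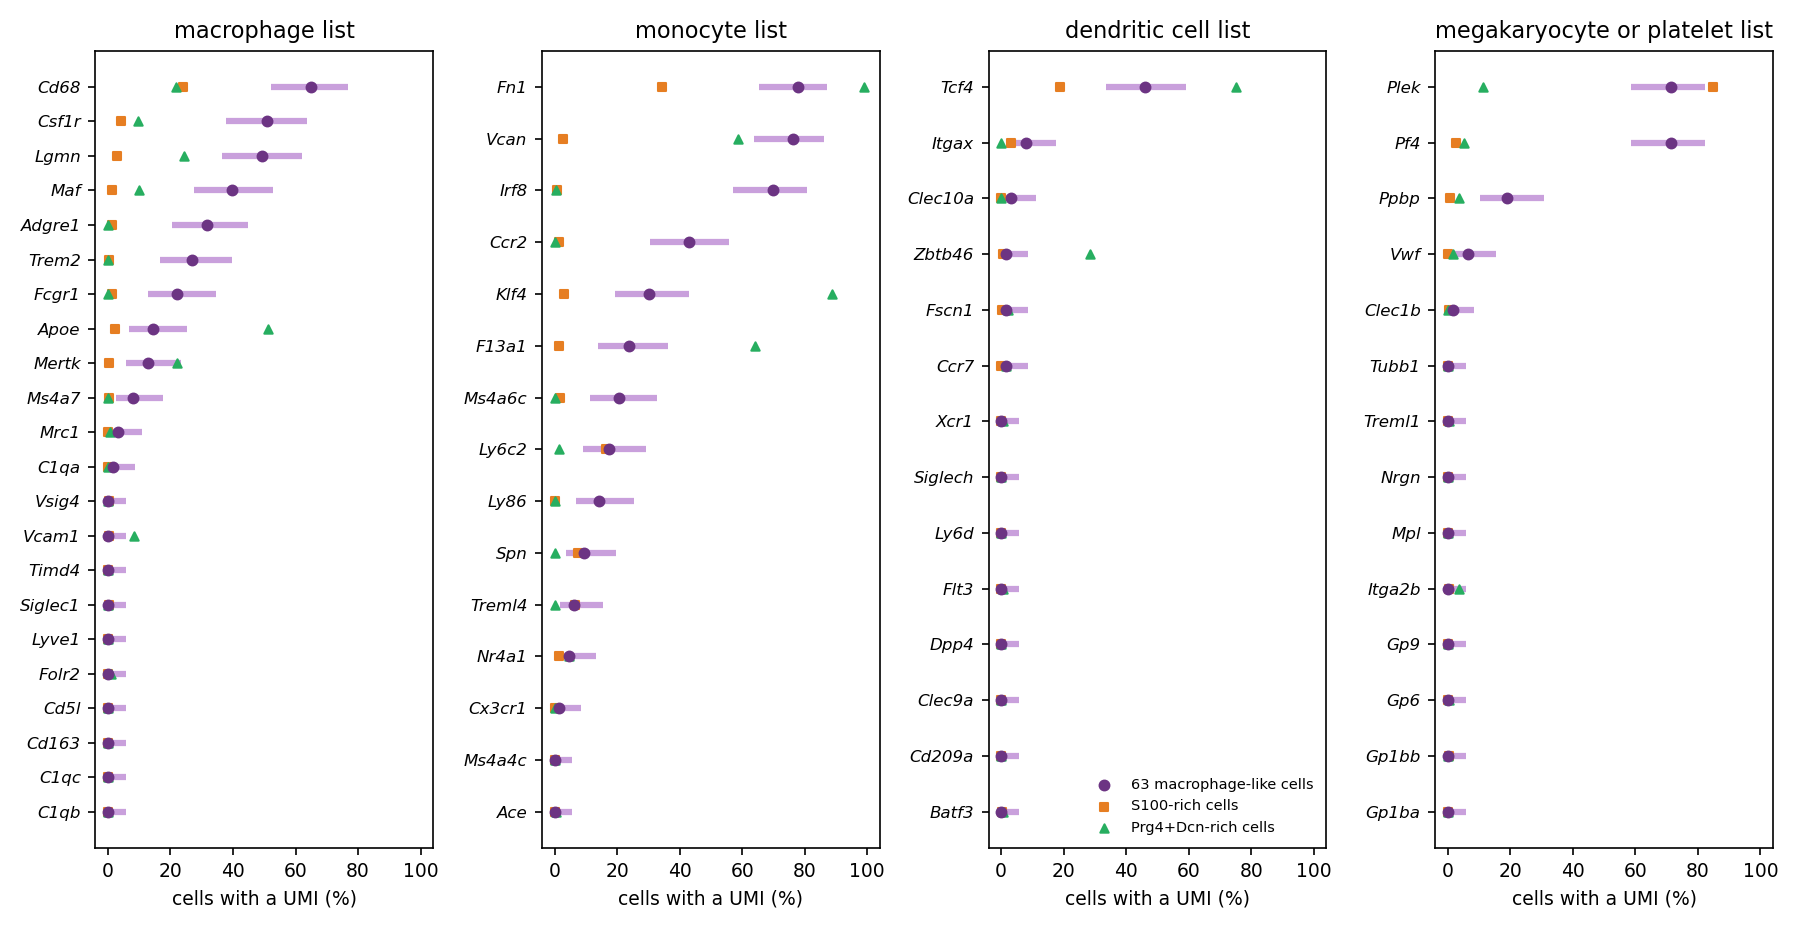
Share of cells with a UMI (x axis, %) for the genes of 4 marker lists in the 63 macrophage-like cells (purple, with exact 95% intervals), the 1806 S100-rich cells (orange squares) and the 189 Prg4+Dcn-rich cells (green triangles), at full depth. Csf1r, Cd68, Adgre1, Trem2, Irf8 and Ccr2 stood above both other groups, Apoe and Mertk were more often seen in the Prg4+Dcn-rich cells, while the listed genes of resident macrophages, of dendritic cells other than Tcf4 (46.0% of cells) and of platelets other than Pf4, Ppbp and Plek were seen in few cells or none.

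Most platelet and megakaryocyte markers other than the chemokine genes Pf4 and Ppbp had no UMI. Ppbp (chr5:90768518-90770063, plus strand) had 1092 CPM in the macrophage-like cells, 1.65 CPM in the S100-rich cells and 2.99 CPM in the remaining cells. Of the 14 genes of the megakaryocyte and platelet list, 9 had no UMI in the 63 cells, including those for the integrin and receptor subunits Itga2b, Gp9, Gp1ba, Gp1bb and Gp6, and the tubulin gene Tubb1. Clec1b had 1 UMI and Vwf had UMIs in 4 cells. Plek, which leukocytes also express, had 358 CPM against 572 CPM in the S100-rich cells.

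Ppbp was confined to fewer cells than Pf4. It had a UMI in 12 cells, 10 of which also had Pf4, and the 7 cells with 10 or more Ppbp UMIs held 98.6% of its 856 UMIs. Those 7 cells had 237, 228, 192, 66, 60, 43 and 18 Ppbp UMIs. The gene bodies of Ppbp and Pf4 lie next to each other on the same strand, with 2371 bases between them. Their promoters are shown because the 2 genes were high in overlapping sets of cells; the sequences are from RefSeq (GRCm38.p6, 250 bases before to 50 after the gene start, plus strand, 5′ to 3′), and capitals mark matches on either strand to 3 short motifs of myeloid transcription factors, GAGGAA for PU.1, TTGCNNAA for C/EBP factors and TGANTCA for AP-1.
Ppbp, chr5:90768268-90768567: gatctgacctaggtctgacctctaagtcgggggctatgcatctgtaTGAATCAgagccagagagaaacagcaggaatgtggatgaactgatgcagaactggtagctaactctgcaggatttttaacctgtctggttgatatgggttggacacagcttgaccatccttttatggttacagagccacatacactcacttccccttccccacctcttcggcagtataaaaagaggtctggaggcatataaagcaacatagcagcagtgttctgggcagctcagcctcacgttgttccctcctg
Pf4, chr5:90772185-90772484: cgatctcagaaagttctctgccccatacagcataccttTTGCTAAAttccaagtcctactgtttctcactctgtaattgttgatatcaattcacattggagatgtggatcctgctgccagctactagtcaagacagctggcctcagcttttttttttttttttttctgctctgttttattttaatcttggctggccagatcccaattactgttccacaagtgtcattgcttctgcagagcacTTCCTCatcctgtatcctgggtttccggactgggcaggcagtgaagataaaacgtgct
The Ppbp window held 1 AP-1 match and no other, and the Pf4 window held 1 C/EBP and 1 PU.1 match. Among all 32851 windows in the table, 28.3% held the PU.1 letters, 10.8% the C/EBP letters and 7.81% the AP-1 letters, so these matches describe the sequences and mark no site.

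**Figure D3:**
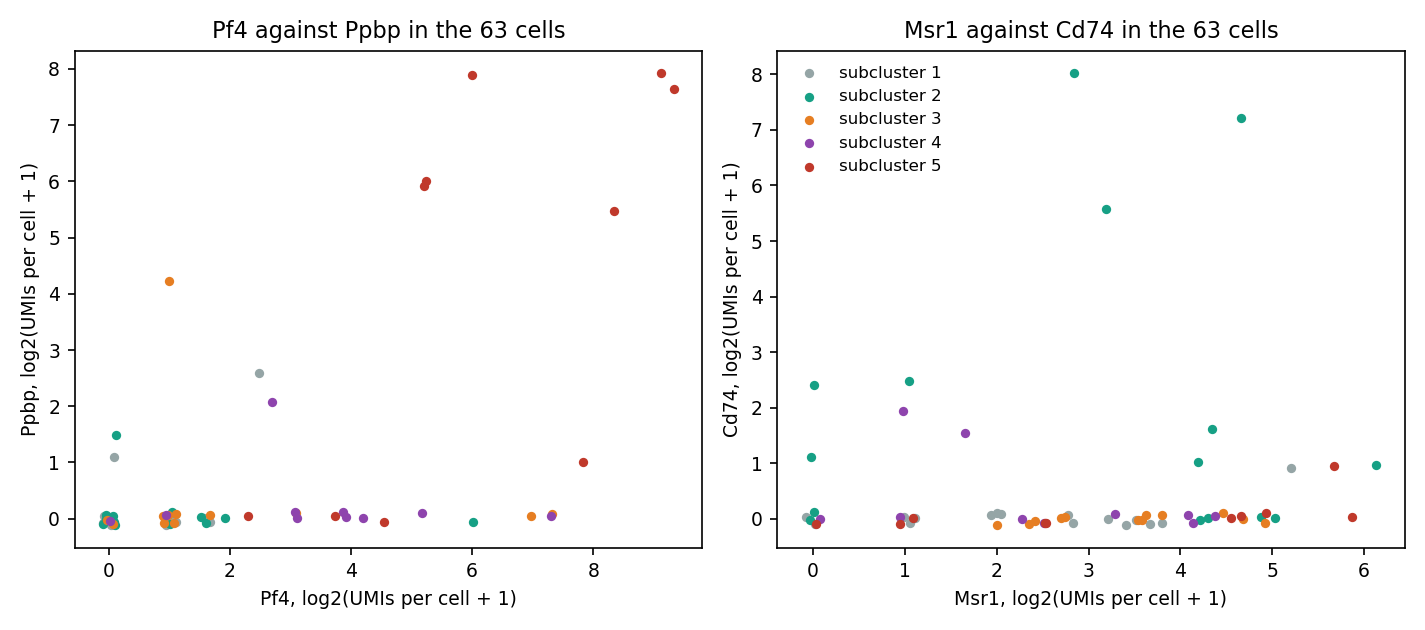
UMIs per cell of Pf4 against Ppbp (left) and of Msr1 against Cd74 (right) in the 63 cells, both axes as log2(UMIs + 1) with a small random shift so that overlapping points show, coloured by the 5 subclusters. Ppbp was high in part of the cells with Pf4, most of them of subcluster 5, and Cd74 was high in 3 cells of subcluster 2.

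The transcriptome of the macrophage-like cells was next set against the S100-rich cells as CPM of summed UMIs. Genes below 10 CPM in both groups were left out, and 7952 were tested. Of these, 3997 (50.3%) were 2-fold or more higher in the macrophage-like cells and 834 (10.5%) were 2-fold or more lower. The median log2 ratio of all tested genes was 1.01. S100a8 and S100a9 took 26.95% of the UMIs of the S100-rich cells; with this pair left out of the totals the median was 0.53 and the counts were 3165 higher and 1358 lower, a share of 70.0% higher. With the ratios divided by their median, the counts were 2178 higher and 2148 lower, so that the share of higher genes among those counted went from 82.7% to 50.3%. The counts are therefore read below against a background of 50.3% higher and 10.5% lower and a median of 1.01, and a gene near 2-fold cannot be told from the shift of all genes. A gene absent from the S100-rich cells could be tested only through its level in the macrophage-like cells, so list counts are descriptions.

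Among genes at 100 CPM or more with a UMI in 10% or more of the macrophage-like cells, and outside the rule genes, the largest ratios went to Ppbp (661-fold), the caveolin gene Cav1 (202-fold), Pid1 (142-fold, in 45 cells), the growth factor gene Pgf (123-fold) and the neutrophil-attracting chemokine gene Cxcl5 (112-fold). The next were Il7r (102-fold, in 39 cells), the interleukin 7 receptor gene, S100a4 (101-fold, in 45 cells), the collagen-binding integrin gene Itga1 (90.6-fold, in 44 cells), Crip1 (82.9-fold), Pdgfa (76.0-fold) and Adgrl2 (72.5-fold). Irf8 (72.0-fold), Cxcl14 (71.7-fold), Myof (70.3-fold), the lamin gene Lmna (67.2-fold), Nrp2 (60.7-fold), the macrophage elastase gene Mmp12 (57.4-fold) and Vcan (56.7-fold) followed. These genes were not all shared by the group. Pid1, Itga1, S100a4, Irf8 and Il7r were found in 39 to 45 of the 63 cells, whereas Pgf had a UMI in 9 cells, 1 of which held 100 of its 115 UMIs, and Cxcl5 in 11 cells.

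Several of these genes were as high in the remaining cells. Cxcl5 had 309 CPM in the macrophage-like cells and 287 CPM in the remaining cells, Crip1 had 608 and 518 CPM, and Nrp2 had 106 and 113 CPM. Against the remaining cells, the largest ratios included those of Pf4 (469-fold), Ppbp (365-fold, 124 to 1773, on 3 UMIs in the remaining cells), Msr1 (195-fold), Ms4a8a (101-fold, 17.6 to 4040, on 1 UMI), the amino acid transporter gene Slc7a8 (61.4-fold, 16.5 to 514.1, on 2 UMIs), Ccr2 (47.0-fold), the complement C3a receptor gene C3ar1 (43.7-fold), Itga1 (32.4-fold) and Serpinb2 (29.01-fold). Pf4 and Msr1 are rule genes. Ms4a8a, a membrane protein of the MS4A family, had a UMI in 20 cells, with a median of 0 and a highest value of 21.

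The lowest ratios to the S100-rich cells were those of neutrophil genes. Olfm4, Stfa2, Stfa2l1, Cstdc5, Lrg1, Ltf, Camp, Ngp, Ceacam10 and Mgll led this end. Ngp, a secondary granule gene, had 101 CPM in the macrophage-like cells and 7236 CPM in the S100-rich cells, and Ltf, the lactoferrin gene, had 15.3 and 1116 CPM. All 12 mature neutrophil markers had UMIs in the macrophage-like cells, with a summed level of 9109 CPM led by S100a9 at 3938 CPM, against 295499 CPM in the S100-rich and 3723 CPM in the Prg4+Dcn-rich cells. The 2 cells of highest S100 share, 4.83% and 3.39%, held 62.8% of these UMIs, and without them the level was 3934 CPM; the median cell had 10 UMIs of S100a9. S100a8 and S100a9 were part of the rule, and 9 of the other 10 markers were 2-fold or more lower. The exception was Mmp8, the neutrophil collagenase gene, which was at 1021 CPM against 1086 CPM in the S100-rich and 11.4 CPM in the Prg4+Dcn-rich cells and had a UMI in 46 of the 63 cells (45.9% of cells thinned to 1000 UMIs, against 49.5% of S100-rich and 1.12% of Prg4+Dcn-rich cells). Of 8 tested neutrophil precursor genes 6 were lower and 1 higher. Of 5 tested osteoclast genes 4 were higher; the most abundant, Nfatc1, was at 43.4 against 33.7 CPM. All 11 listed osteoclast genes summed to 119 CPM against 40.3 CPM in the S100-rich and 159.9 CPM in the Prg4+Dcn-rich cells. Eosinophil and erythroid markers had no UMI, and 6 of 8 B cell, 8 of 10 basophil or mast cell and 7 of 9 T or NK cell markers had none.

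Genes of alternative activation, the state that interleukin 4 induces in macrophages, differed among themselves. Stat6, the transcription factor gene that acts downstream of interleukin 4, had a UMI in 36 cells, at 108 CPM against 81.5 CPM in the S100-rich cells, and Klf4 in 19 cells, at 49.7 against 6.15 CPM and against 438 CPM in the Prg4+Dcn-rich cells. Retnla had UMIs in 2 cells, Mrc1 in 2, Chil3 in 6 and Clec10a in 2. Of 11 genes counted from this list there were 3 higher and 4 lower, and 3 and 6 after division by the median ratio.

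Of 16 tested scavenger and lipid-handling genes outside the rule, 10 were 2-fold or more higher and 2 lower, with a median log2 ratio of 1.95, and 8 higher and 5 lower after division by the median ratio. The lipoprotein receptor gene Lrp1 (269 against 16.6 CPM) and the cholesterol exporter gene Abca1 (247 against 26.1 CPM) were among the higher ones. The lipid-droplet coat gene Plin2 was at 1980 CPM in the macrophage-like and 1872 CPM in the S100-rich cells. For Fabp4, 138 of 140 UMIs came from 1 cell.

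Lysosomal genes were tested as 20 genes, of which 12 were higher and none lower, with a median log2 ratio of 1.42, and 8 higher and 4 lower after division by the median ratio. The cathepsin L gene Ctsl stood out with 3696 CPM and a UMI in 59 cells, against 237 CPM in the S100-rich and 212 CPM in the remaining cells. Cathepsin S, encoded by Ctss, had 445 against 50.5 CPM. Among iron and haem genes, Hmox1, the heme oxygenase gene, had 3844 CPM and a UMI in 62 cells, against 979 CPM, and of the 8 tested genes 4 were higher and 1 lower, but 1 and 1 after division by the median ratio.

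The 18 listed chemokine genes summed to 24640 CPM, against 22566 CPM in the S100-rich, 22128 CPM in the remaining and 18320.5 CPM in the Prg4+Dcn-rich cells, but were made up differently. Cxcl3 had 11253 CPM and a UMI in 58 cells, against 3899 CPM in the S100-rich cells, and Ccl9 had 976 against 228 CPM. Of the 13 tested chemokine genes outside the rule, 10 were higher and 2 lower. Ccl6 was lower, at 2892 against 14853 CPM, and Cxcl2 was at 3235 against 2879 CPM. Among coagulation genes, of 9 tested 6 were higher and 1 lower; the thrombospondin gene Thbs1 had 3859 against 1368 CPM and F10, the coagulation factor X gene, 440 against 30.5 CPM. In the MS4A family, 6 of 7 tested genes were higher and 1 lower; Ms4a6d was the most widely detected, in 47 cells at 223 CPM. The transcription factor genes shared by myeloid cells differed less, with Spi1, which encodes PU.1, at 209 against 314 CPM and Cebpb at 1174 against 1352 CPM. Of 17 tested transcription factor genes 7 were higher and 4 lower, but 5 and 8 after division by the median ratio. The counts for efferocytosis genes were 7 higher and 1 lower of 8, led by Lrp1. All 18 listed efferocytosis genes summed to 506 CPM, against 132 CPM in the S100-rich and 823 CPM in the Prg4+Dcn-rich cells. Counts for complement genes were 1 and 2 of 5 (1 and 3 after division by the median ratio). Those for myeloid growth factor and cytokine receptors were 3 and 2 of 13 (2 and 7 after that division). For Fc gamma receptors they were 1 and 1 of 5 (1 and 3).

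The cells were clustered among themselves to describe how diverse they were, and no difference between the resulting 5 subclusters is a test, since they were made from the same values. Subcluster 1 (16 cells: 7 OVX, 7 sham, 2 unassigned) was shallow, with a median of 5099 UMIs. Gm42418, a transcript that overlaps ribosomal RNA, took 142832 CPM in it, against 12088 to 45911 CPM in the other subclusters. It held 6 of the 7 sham cells with over 8000 hashtag UMIs, where the median sham macrophage-like cell had 3661. Its other leading genes were Wfdc17, Bend4, Ptprj and Med23. The part of RNA quality and hashtag load in this subcluster was not tested.

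Subcluster 2 (15 cells: 4 OVX, 10 sham, 1 unassigned) was the deepest, with a median of 24337 UMIs, and the lowest in Cd36, at 29.6 CPM (14.8 to 53.0). Msr1 was at 654 CPM (575 to 742), within counting error of the 717 CPM (563 to 900) of subcluster 4. Pf4 was at 199 CPM (156 to 250.1), with a UMI in 6 of its cells, 1 of which held 65 of the 74 Pf4 UMIs. Its Ccr2 level was 269 CPM, with a UMI in 11 cells. It was led by the class II antigen presentation genes H2-Eb1, H2-Aa, Cd74 and H2-Ab1 and by Dut, which makes a thymidylate precursor. These class II genes came from 3 cells. The 3 cells had 161, 93 and 12 UMIs of H2-Aa and 153, 244 and 46 of Cd74, or 98.9% and 95.5% of all UMIs of these genes in the group. All 3 carried the OVX hashtag, Msr1 (23, 6 and 8 UMIs), Csf1r (8, 4 and 4) and Ccr2 (5, 12 and 4). The first was also the cell with the highest S100 share, 4.83%, and had UMIs of all 12 mature neutrophil markers. Class II genes were as high in the remaining cells. Cd74 was at 611 CPM and H2-Aa at 341 CPM there, against 592 and 343 CPM in the macrophage-like cells.

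Subcluster 2 also took in a cell with endothelial genes and a pair of cycling cells. An OVX cell of 31377 UMIs had 46 UMIs of Cdh5, 57 of Kdr, 50 of Emcn and 138 of Fabp4, with all 6 endothelial markers detected and no Csf1r, Adgre1 or Msr1. It had entered with 7 rule-gene UMIs, 6 of them from Cd36; endothelial cells of capillaries express Cd36 and Fabp4. All 26 Fscn1 UMIs, counted in the dendritic list, were in this cell. A pair of sham cells had 10 and 9 of the 10 cycling genes. The first of them, with 84224 UMIs, had 36 UMIs of Ccr2, 15 of Adgre1, 66 of Msr1, UMIs of all 12 mature neutrophil markers and an S100 share of 3.39%.

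Subcluster 3 (12 cells, all sham) was led by Serpinb2, the plasminogen activator inhibitor 2 gene of activated monocytes, at 3814 CPM (3443 to 4215), with Ccl4, Schip1, Il1b and Il1a. Il1b was at 2804 CPM with a UMI in all 12 cells, against 101 to 203 CPM in the other subclusters. Ms4a8a was highest here, at 505 CPM in 8 of the 12 cells, as were Cxcl3 at 34676 CPM and Thbs1 at 13405 CPM. Its Msr1 level of 1417 CPM (1194 to 1669) overlapped the 1632 CPM (1410 to 1879) of subcluster 5 within counting error.

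Subcluster 4 (10 cells: 2 OVX, 8 sham) had the highest Cd36 level, 823 CPM (658 to 1018), and no Ccr2 UMI in 103245 UMIs. Of its 85 Cd36 UMIs, 31 and 26 came from single cells, and 8 of the 10 cells had a Cd36 UMI. Subcluster 4 was led by Gpnmb, a glycoprotein of lysosome-rich macrophages, at 232 CPM in 5 cells, the prostaglandin E2 receptor gene Ptger2, Pmp22, the syndecan gene Sdc1 and Rab7b. Subcluster 5 (10 cells: 2 OVX, 6 sham, 2 unassigned) held Ppbp at 6994 CPM and Pf4 at 16330 CPM, with Pf4 in all 10 cells and Ppbp in 7, together with Ccl7, a ligand of Ccr2, and Akr1b8. Maf was at 364 CPM there (263 to 490), against 33.2 to 184 CPM in the other subclusters. A single cell held 26 of the 43 Maf UMIs of subcluster 5, and 6 of the 10 cells had a Maf UMI, as in subcluster 4. Serpinb2 and Ppbp were thus highest in separate subclusters, and class II genes in another.

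**Figure D4:**
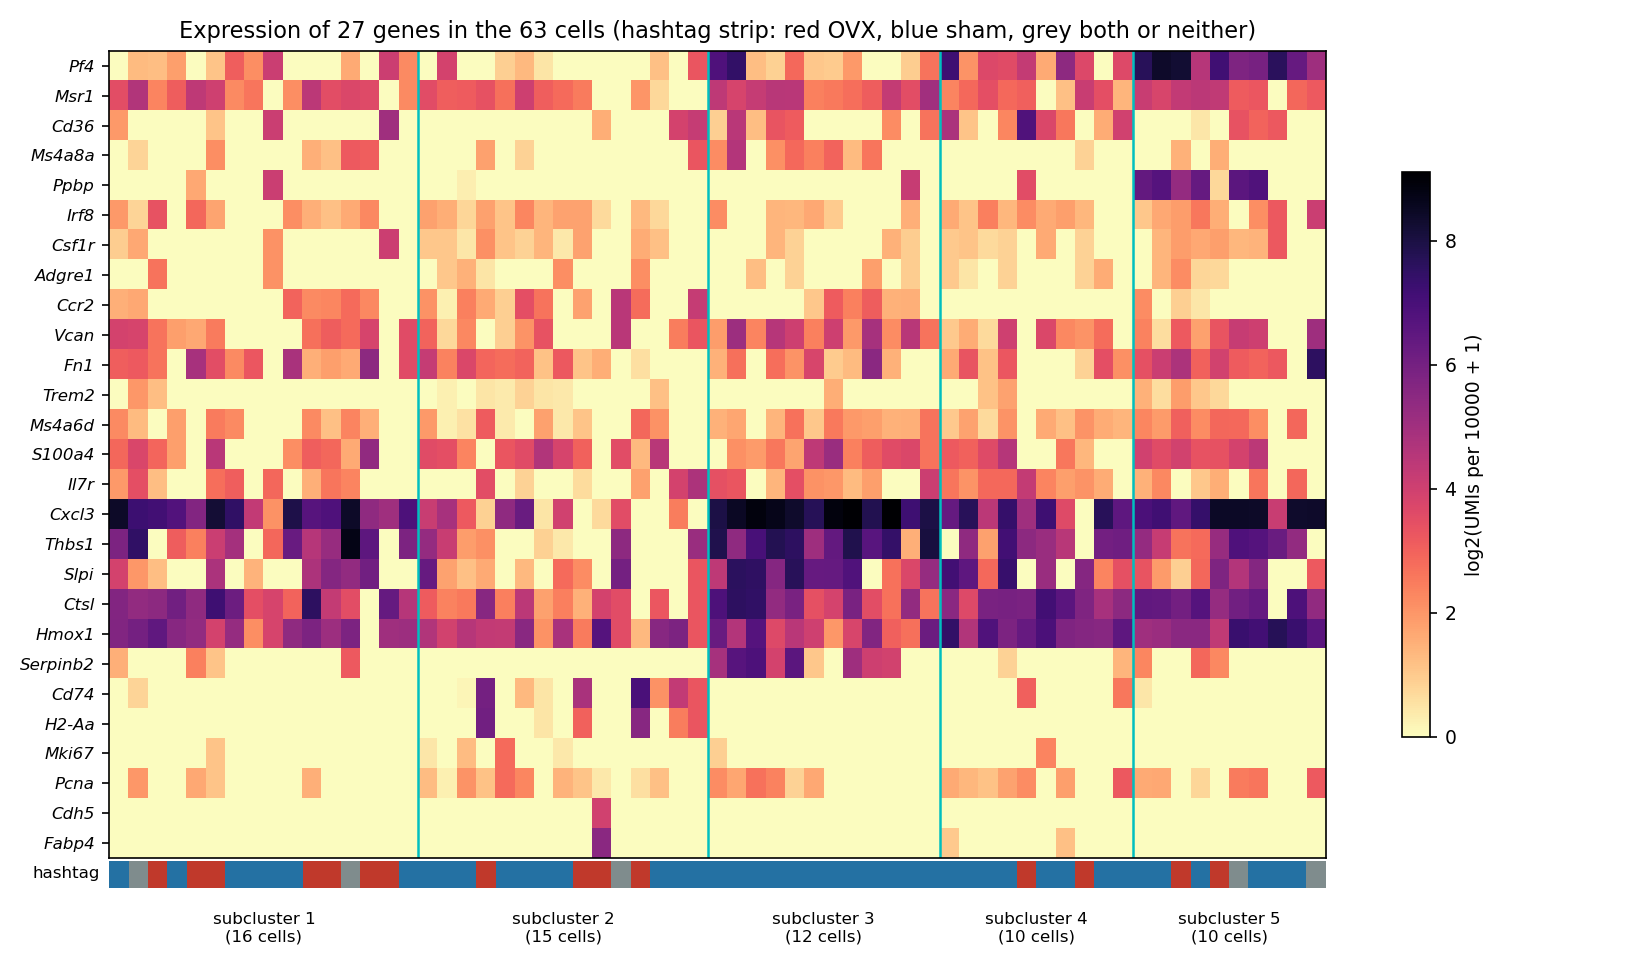
Levels of 27 genes (rows) in the 63 cells (columns) as log2(UMIs per 10000 + 1), ordered by subcluster and within it by rule-gene UMIs, with a strip for the hashtag (red OVX, blue sham, grey both or neither). Serpinb2 filled most of subcluster 3, Ppbp and Pf4 subcluster 5, and Cd74 and H2-Aa 3 cells of subcluster 2.

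Under the rule as given, more of the cells carried the sham than the OVX hashtag. Of the 63 cells, 43 carried the sham hashtag, 15 the OVX hashtag, 3 both and 2 neither. This was 4.38% of the 981 sham cells (exact interval 3.19% to 5.86%) and 1.42% of the 1059 OVX cells (0.795% to 2.33%), a ratio of 3.09 (1.69 to 5.997). The S100-rich cells made up 78.8% of sham and 83.2% of OVX cells, and the remaining cells 12.3% and 12.2%. The Prg4+Dcn-rich cells made up 4.49% and 3.21%, a ratio of 1.40 (0.873 to 2.25). With cells assigned to the hashtag that held 80% of their hashtag UMIs, the Prg4+Dcn-rich ratio was 3.12 (2.01 to 5.01) and the macrophage-like ratio 2.64 (1.42 to 5.199). This ratio depended on the S100 limit. With 3 or more rule-gene UMIs at any S100 share, 45 OVX and 51 sham cells qualified, or 4.25% and 5.20%, and the ratio was 1.22 (0.803 to 1.87), an interval that includes 1. With 20 or more rule-gene UMIs at any S100 share, where 8 OVX and 3 sham cells came from the S100-rich group, it was 2.45, and under the other 11 limits and hashtag rules it was 2.64 to 3.47. With 1 pool per condition, the difference between the pools cannot be told apart from differences in sorting, digestion or hashtag staining between them.

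**Figure D5:**
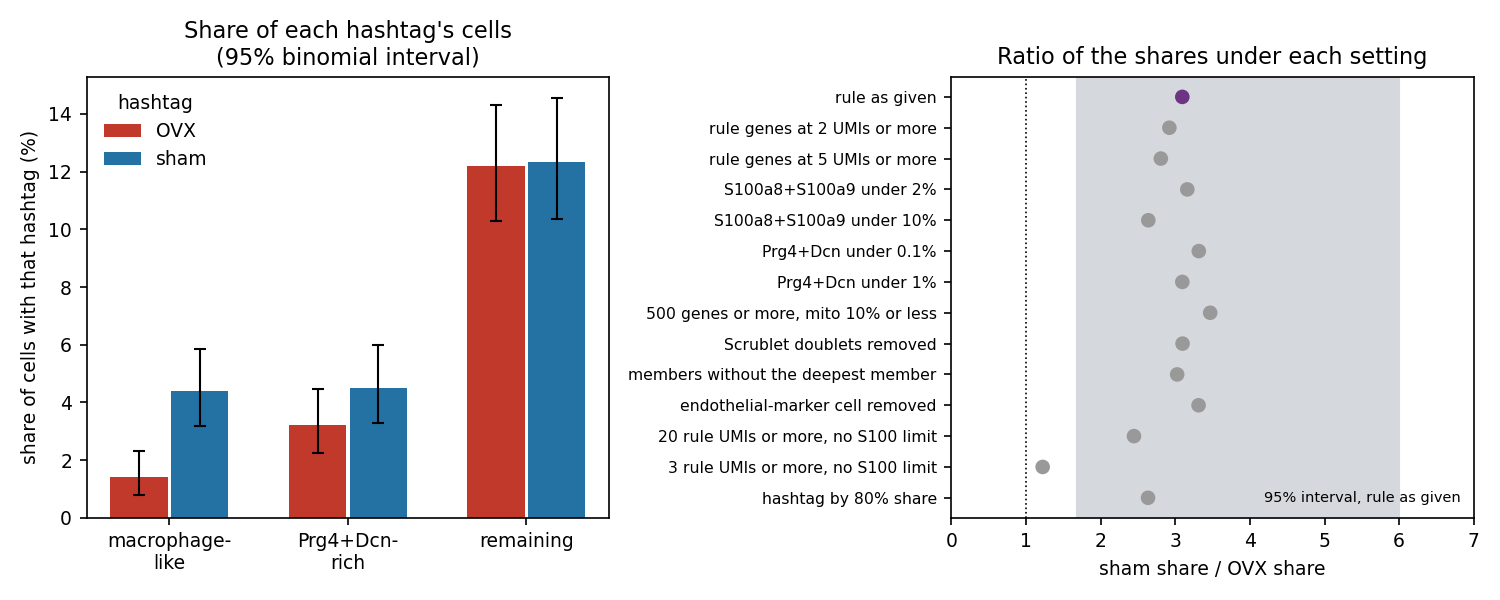
Left, share of each hashtag's cells (%) that were macrophage-like, Prg4+Dcn-rich or remaining, with exact 95% binomial intervals; right, ratio of the sham to the OVX share of macrophage-like cells under the rule as given and 13 other settings, with the 95% interval of the rule as given shaded. The sham share was 4.38% and the OVX share 1.42%, and the ratio went down to 1.22 with no S100 limit.

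Gene levels within the group were set side by side by hashtag, on 582347 UMIs of 43 sham cells and 174612 UMIs of 15 OVX cells, whose median depths were 9228 and 8635 UMIs. Pf4 was at 3333 CPM in the sham and 3362 CPM in the OVX cells (ratio 0.991, 0.904 to 1.09). It had a UMI in 34 of 43 and 7 of 15 cells, with medians of 2 and 0 UMIs and highest values of 613 and 340. The ratio was 0.813 to 1.16 with each cell weighted equally, with another hashtag rule or without the deepest cell of either hashtag. Msr1, the next of the rule genes, was at 955 and 922 CPM (ratio 1.04, 0.867 to 1.24). Cd36 was at 203 and 229 CPM, a ratio of 0.885 (0.613 to 1.2999) that became 0.432 with each cell weighted equally. It had a UMI in 21 of 43 and 4 of 15 cells, and 1 OVX cell held 31 of the 40 OVX UMIs. Ms4a8a was at 91.0 and 120 CPM (ratio 0.757, 0.449 to 1.32), with a UMI in 10 of 43 and 8 of 15 cells. With each cell weighted equally the ratio was 1.05 for Ms4a8a and 0.821 for Msr1, so neither had a settled direction. Nor did Cd36, whose level was higher in the OVX cells and whose detection was higher in the sham cells. The values of the 2 hashtags overlapped for every one of these genes. Ppbp, which rested on few cells, had 748 UMIs in 7 sham cells and 48 UMIs in 4 OVX cells, a ratio of 4.67 (3.49 to 6.39).

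Serpinb2 had 418 UMIs in 14 sham cells and 9 UMIs in 3 OVX cells, and Ccl4 had 277 and none. Cxcl3 was at 12003 CPM in sham and 6872 CPM in OVX cells, and Thbs1 at 3960 and 1077 CPM. Subcluster 3, with no OVX cell, held 385 of the sham Serpinb2 and 247 of the sham Ccl4 UMIs. It also held 3500 of the 6990 sham Cxcl3 UMIs and 1353 of the 2306 sham Thbs1 UMIs. The class II genes went the other way, with 445 Cd74 UMIs in the OVX and 18 in the sham cells, of which 443 came from the 3 OVX cells described above. The summed neutrophil markers were at 10910 CPM in the OVX and 8787 CPM in the sham cells, and at 4039 and 3875 CPM without the cell of highest S100 share of each hashtag; the endothelial markers at 1449 and 68.7 CPM, the former mostly from the endothelial-type cell, which held 84.1% of the list's UMIs.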

How the data were processed

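Gene and hashtag counts were UMIs, deposited by the authors as an unnormalized matrix of 32285 genes and 2 hashtags. It came from Cell Ranger, version 6.0.0 in the file header and 6.0.1 in the submitters' processing notes, on mm10. Hashtag counts were read from its 2 hashtag rows. Hashtags were assigned with HTODemux (Seurat 5.3.0, R 4.3.3, quantile 0.99), which called 1059 OVX, 981 sham, 78 double and 231 negative cells. All 2349 deposited barcodes were kept. The cells and gene lists were chosen with earlier results of these data known.

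Levels are CPM of UMIs summed over a group, with exact Poisson intervals; ratios have exact conditional binomial intervals and shares Clopper-Pearson intervals. A group at 0 was given a floor of 3 UMIs in ratios. UMIs were counted from 3′ ends and not scaled by gene length. Subclusters came from Louvain clustering (scanpy 1.11.5, igraph 0.11.9) of the cells alone: 10000 per cell, log, 1000 variable genes, 15 components, 10 neighbors, resolution 1.

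Named genes were the rule genes, the markers, the 20 highest and 10 lowest ratios to the S100-rich cells, the 10 highest to the remaining cells (100 CPM or more, in 10% of cells), the 5 leading genes of each subcluster, and the abundant genes of each list. Other list genes named (such as Cxcl2, Apoe, Mertk and Mmp8) and the cells described singly were picked out after their values were seen. A few genes that this rule names, 1 of them a gene of the selection, are not reported here. Fold calls and ratio intervals were tested on simulated counts. Thinning was checked on cells of the matrix itself, for reaching the set depth only.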

Additional observations from a re-analysis of the deposited data

How the results depend on the processing

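With no S100 limit and 3 or more rule-gene UMIs there were 102 cells. Their share was 4.25% for the OVX and 5.20% for the sham hashtag, which gave 1.22 in place of 3.09 as the ratio, and 406 genes were 2-fold or more lower. Under the other 11 limits there were 52 to 68 cells (63 as given). Removing the endothelial-type cell, both settings without an S100 limit and the setting with S100a8 and S100a9 left out of the totals were chosen after seeing the data; without the endothelial-type cell 3798 genes were 2-fold or more higher and 863 lower. The counts of genes 2-fold or more higher and lower (3997 and 834) changed with scaling and filter: 2178 and 2148 with ratios divided by their median, 809 and 306 at 100 CPM or more, 6280 higher with every gene that had a UMI in both groups, and 1358 lower with S100a8 and S100a9 left out of the totals. Thinned to 1000 UMIs, 4.92% of cells had 3 or more macrophage genes and 13.1% had 3 or more monocyte genes, against 74.6% and 76.2% at full depth, so per-cell combinations of markers are set by depth. Clustering gave 5 subclusters as described, 3 at resolution 0.5 and 5 to 7 under the other settings. The adjusted Rand index against the subclusters described was 0.35 to 0.791, so membership of single cells moved with the settings. No paired analysis was possible because each condition was 1 pool.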
